A study of Arabidopsis thaliana with 4 samples.

Results

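The 57 genes described here are nuclear genes of the Arabidopsis thaliana thylakoid: 21 light-harvesting chlorophyll proteins (LHCB and LHCA), 12 photosystem I core subunits, 13 photosystem II subunits, 7 electron carriers and reductases, 2 ATP synthase subunits and 2 genes of cyclic electron flow. They were chosen by locus name, with earlier results of these data already known, from the 25665 genes that had a probe on the array. All 57 had a probe, and all 57 were among the 19495 genes tested.

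Whole seedlings of 35S:AtERF4-HA plants were set against seedlings of 35S:NLS-GFP-HA plants, the control, on 2-colour Agilent microarrays. AtERF4 is an ethylene response factor that carries an EAR repression motif, and the control expresses a nuclear green fluorescent protein. Both transgenes share the constitutive viral 35S promoter and an HA tag, both genotypes are Columbia-0, and both were untreated and harvested at 14 days. The plates held 0.5% sucrose and stood at 23 degrees Celsius in a cycle of 16 h of light and 8 h of darkness. Each of the 4 biological replicates pooled many plants of both genotypes from a shared plate, with 1 µg of total RNA labelled per channel. The sources used here do not say how many independent transgenic lines the plants came from. Arrays 1 and 2 had the AtERF4-HA RNA in Cy3, and arrays 3 and 4 had it in Cy5.

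In the thylakoid membrane, LHCB proteins bind chlorophyll and pass excitation energy to photosystem II, while LHCA proteins serve photosystem I. Photosystem II splits water at its oxygen-evolving complex, and electrons then run through plastoquinone, the cytochrome b6f complex and plastocyanin to photosystem I, ferredoxin and NADP+. The nuclear genes of this chain are among the most strongly expressed genes of green seedlings, respond together to light and chloroplast signals, and depend in part on the GOLDEN2-LIKE transcription factors GLK1 and GLK2.

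Every ratio below is the log2 of AtERF4-HA over control by the dyes in the labels. By the same dyes the authors' deposited value table runs control over AtERF4-HA, although the sample titles name AtERF4-HA over control. The sources used here do not say which is right, and an exchange would turn each direction round. ERF4 itself (AT3G15210) had log2 ratios of 0.98, 0.87, 0.82 and 1.04 on arrays 1 to 4, above 0 on each, with a fitted value of 0.93 ± 0.07 (SE, n = 4 arrays; limma adjusted p = 0.0028). The 4 entries of the deposited table for ERF4 were -0.87, -0.71, -0.75 and -0.85. In that table as deposited, 52, 53, 53 and 55 of the 57 members lay below 0 on arrays 1 to 4, with medians of -0.25, -0.31, -0.38 and -0.58 on its natural log scale. Across arrays the median signal of all probes lay between 122 and 140 for the green channel and between 166 and 222 for the red, with local background at 58 to 60. All 57 members were well above background in both channels of all 4 arrays and none was saturated.

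The members were mostly higher in AtERF4-HA seedlings. With limma over all tested genes, 46 of 57 rose and 1, FD1, fell at an adjusted p under 0.05, against 13.6% and 12% of all genes called in those directions and 25.6% in either. The 46 ranged from 1.23-fold to 2.85-fold higher, so most changes were below 2-fold. Only 4 members were called at 2-fold or more (LHCB1.4, LHCB2.3, LHCA1 and PSBQ2), against 0.944% of all genes. The median fitted log2 ratio was 0.56 over the members and 0.01 over all tested genes, whose 5th and 95th percentiles were -0.73 and 0.52. The RNA came from whole seedlings, so a change in the number of cells of a type and a change in RNA per cell cannot be told apart.

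**Figure D1:**
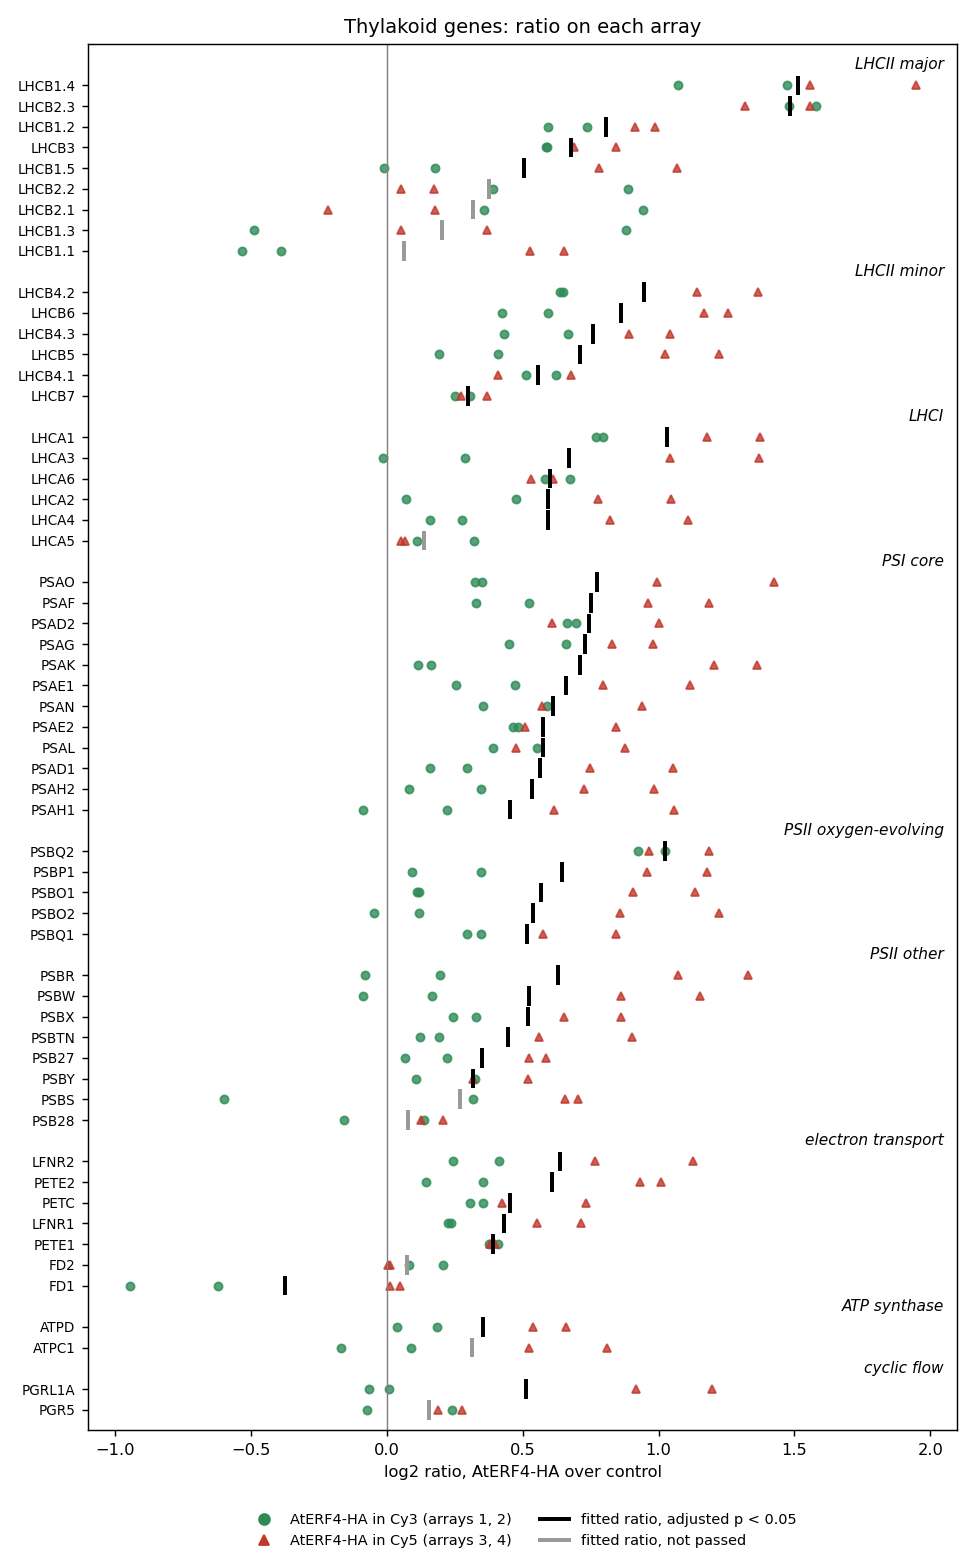
Log2 ratio of AtERF4-HA over control (x axis) for each of the 57 genes (rows, by role); circles are arrays 1 and 2, triangles arrays 3 and 4, and the bar is the fitted value, black where the limma adjusted p passed and grey where it did not. The fitted values run from -0.38 for FD1 to 1.51 for LHCB1.4, and in most rows the triangles lie right of the circles.

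**Figure D2:**
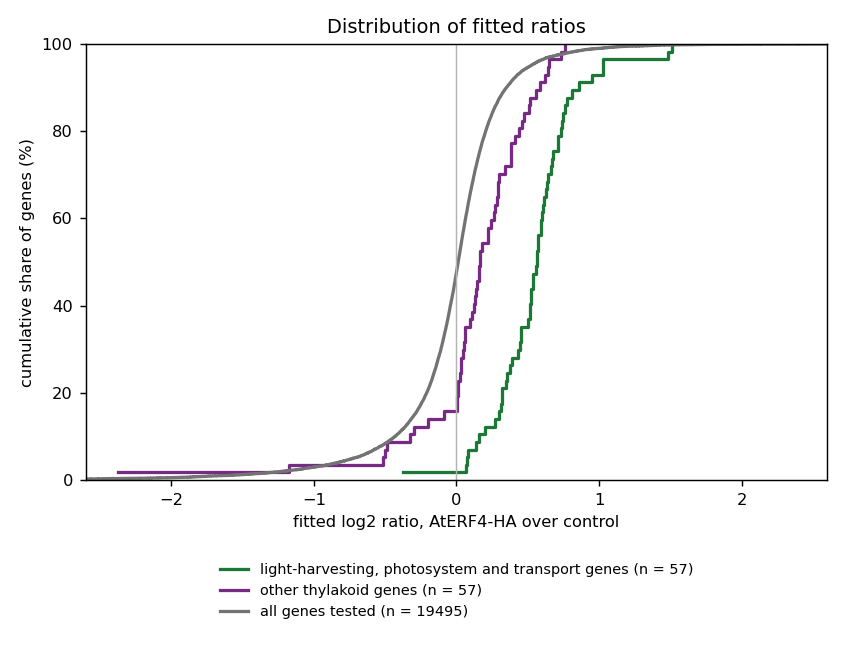
Cumulative share of genes (y axis, percent) against the fitted log2 ratio of AtERF4-HA over control (x axis, more extreme genes of the grey curve not shown) for the 57 members, 57 other thylakoid genes and all 19495 tested genes. The medians are 0.56 for the members, 0.17 for the other thylakoid genes and 0.01 for all genes.

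How far a member rose differed with the array. The members' median log2 ratio was 0.30, 0.35, 0.70 and 0.98 on arrays 1 to 4. Their mean ratios had a median of 0.27 where AtERF4-HA carried Cy3 and 0.84 where it carried Cy5, and 49 of 57 (86.0%) were larger with Cy5, against 54.5% of all genes. The mean ratio was above 0 in 51 members with Cy3 and in 56 with Cy5, against 9575 and 10534 of all 19495 genes. No gene passed for the dye term in limma (lowest adjusted p = 0.34), while at an unadjusted p under 0.05 the term took in 37 members (64.9%) and 2112 of all genes (10.8%). The probes of 52 members were among the brightest 5% of those tested. Because arrays 1 and 2 also hold other plants than arrays 3 and 4, dye and replicate cannot be told apart as sources of the gap between the pairs of arrays, and the part of brightness in it was not tested. The fitted ratios weight both dye orientations equally and carry a dye term.

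**Figure D3:**
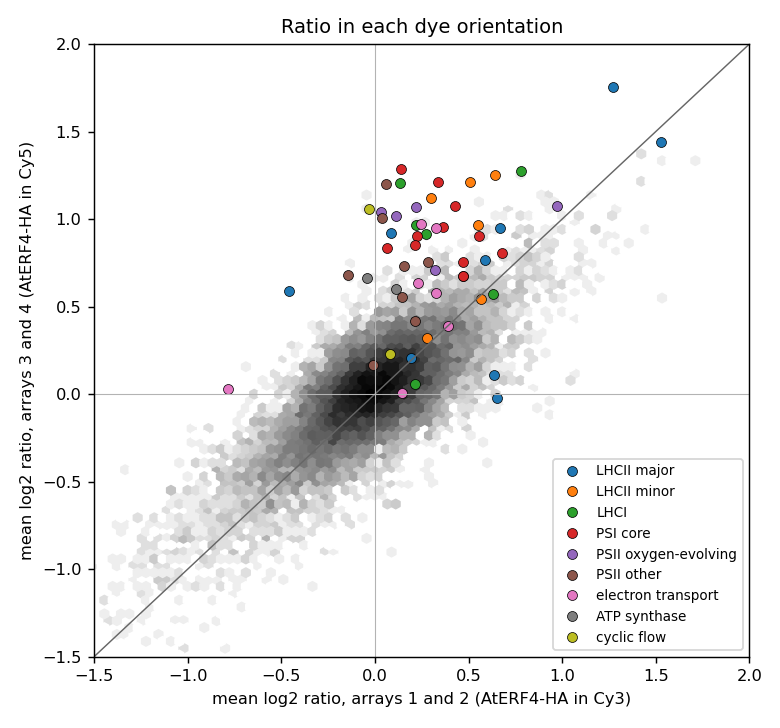
Mean log2 ratio of AtERF4-HA over control on arrays 3 and 4 (y axis, AtERF4-HA in Cy5) against that on arrays 1 and 2 (x axis, AtERF4-HA in Cy3); coloured points are the 57 members by role, grey cells the density of all tested genes inside the axis limits, and the line marks equal values. Of the members, 49 lie above the line and 51 lie right of 0.

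The count of calls fell most when array 1 or array 2 was left out, for the members and for all genes. The members' median log2 ratio was then 0.57 and 0.54, against 0.56 with all arrays. In such a fit the dye term takes up the remaining array of that pair, so the residual error comes from the other pair only. Without array 1, 10 members were called higher (241 of all genes), and without array 2, 8 members (205 of all genes). Without array 3 the count was 48 (3285 of all genes), and without array 4 it was 44 (2146 of all genes). With all arrays, 2660 of all genes were called higher. The 10 called without array 1 were LHCB1.2, LHCB1.4, LHCB2.3, LHCB4.2, LHCB4.3, LHCB5, LHCB6, LHCA1, PSAF and PSBQ2. The 8 called without array 2 were LHCB1.2, LHCB1.4, LHCB2.3, LHCB4.2, LHCB6, LHCA1, PSAG and PSBQ2. FD1 was called without array 3 and without array 4, and was not called without array 1 or without array 2. By the arrays themselves, 42 members had a ratio above 0 on every array, against 28.3% of all genes, and 7 of the 46 called higher had at least 1 array below 0. In normalized channel levels, 38 members had all 4 AtERF4-HA values above all 4 control values, against 17.2% of all genes.

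The major light-harvesting complex of photosystem II (LHCII) is a trimer of LHCB1, LHCB2 and LHCB3 proteins. Of its 9 genes, 5 rose and 4 did not pass, with a median log2 ratio of 0.50. Among those that did not pass, LHCB1.3, LHCB2.1 and LHCB2.2 had dimmer probes. Their mean log2 intensity in the control was 10.96, 11.48 and 10.81, against 14.75 to 16.62 for the rest of the group. LHCB1.4 (AT2G34430) had log2 intensities of 17.44, 17.53, 17.41 and 17.57 in AtERF4-HA seedlings, against 16.37, 16.05, 15.85 and 15.62 in the control. The genotypes were far apart on all arrays, and the control varied more (SD 0.32) than AtERF4-HA (SD 0.07). This was the largest rise among the members, 2.85-fold (log2 ratio 1.51 ± 0.10, adjusted p = 0.0027). LHCB2.3 (AT3G27690) had levels of 16.48, 16.20, 16.03 and 16.22 in AtERF4-HA seedlings and 15.00, 14.62, 14.71 and 14.67 in the control. Its 4 ratios, 1.48, 1.58, 1.32 and 1.56, lay close together, and it was 2.80-fold higher (1.48 ± 0.07, adjusted p = 0.0014). LHCB1.4, LHCB2.3 and the minor antenna gene LHCB6 were the members called in all 17 alternative settings.

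Among the other LHCB1 copies, LHCB1.2 (AT1G29910) had ratios of 0.59, 0.74, 0.91 and 0.99 and was 1.75-fold higher (0.81 ± 0.06, adjusted p = 0.0029). LHCB1.5 (AT2G34420) had ratios of -0.01, 0.18, 0.78 and 1.07, with overlapping levels, and a fitted value of 0.50 ± 0.08 (adjusted p = 0.014). LHCB1.1 (AT1G29920) went opposite ways between the pairs of arrays. Its levels were 16.42, 16.37, 16.97 and 16.99 in AtERF4-HA seedlings and 16.81, 16.90, 16.32 and 16.47 in the control, so that AtERF4-HA was the lower on arrays 1 and 2 and the higher on arrays 3 and 4. Its fitted ratio of 0.06 ± 0.06 did not pass (adjusted p = 0.45). LHCB1.3 (AT1G29930) had ratios of -0.49, 0.88, 0.05 and 0.37, with no order by dye (0.20 ± 0.23, adjusted p = 0.54).

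Of the remaining LHCII genes, 1 of 3 rose. LHCB3 (AT5G54270), which encodes the smaller trimer subunit, had ratios of 0.59, 0.59, 0.69 and 0.84 and rose 1.60-fold (adjusted p = 0.0038). LHCB2.1 (AT2G05100) had ratios of 0.36, 0.94, -0.22 and 0.18 (0.32 ± 0.12, adjusted p = 0.12). LHCB2.2 (AT2G05070) had 0.39, 0.89, 0.05 and 0.17 and missed the threshold narrowly (0.37 ± 0.10, adjusted p = 0.0505). Both had their highest ratio on array 2 and, unlike most members, lower ratios with Cy5 than with Cy3.

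Several of these genes lie next to each other in RefSeq gene order: LHCB1.1 beside LHCB1.2 and LHCB1.3, LHCB1.4 beside LHCB1.5, and LHCB2.1 beside LHCB2.2. Such copies are near-identical in coding sequence, and each has 1 probe here, so whether a probe reads only its own copy is uncertain. The ratio of LHCB1.4 exceeded that of LHCB1.5 by 1.08, 1.29, 0.78 and 0.88 on arrays 1 to 4, and that of LHCB1.1 lay below that of LHCB1.2 by a mean of 0.74 (difference -0.74 ± 0.46, SD). Both differences kept their sign on all 4 arrays. LHCB2.1 minus LHCB2.2 was -0.06 ± 0.14 (SD), above 0 on 2 arrays. Over the 13 pairs of genes for the same subunit compared here, an exact 2-sided sign-flip permutation test on 4 arrays cannot go below p = 0.125, and the lowest adjusted p was 0.325, so no pair could pass.

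**Figure D4:**
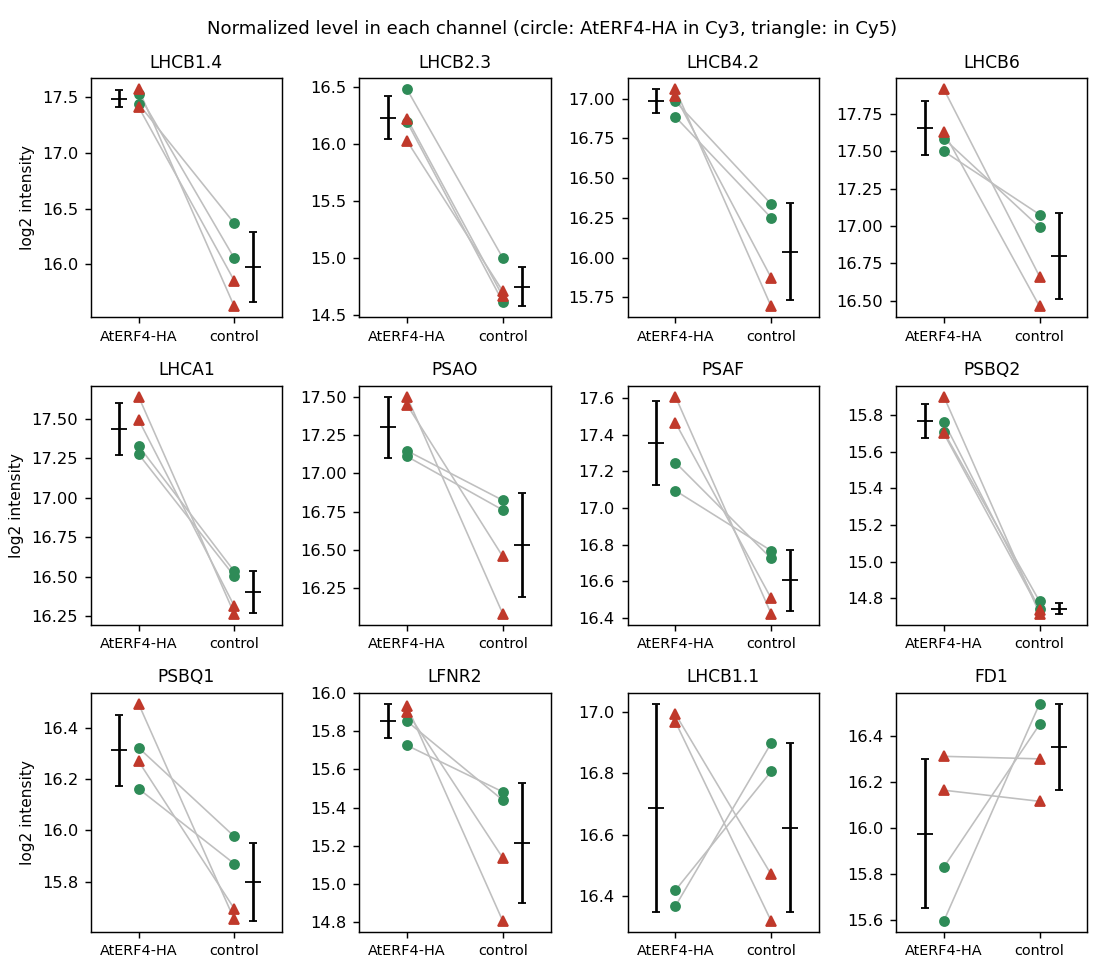
Normalized log2 intensity (y axis, its own range in each panel) of 12 members in the AtERF4-HA channel and in the control channel of each array; lines join the channels of an array, circles are arrays 1 and 2, triangles arrays 3 and 4, and bars give mean and SD (n = 4). In LHCB1.4, LHCB2.3 and PSBQ2 every AtERF4-HA value lies above every control value, whereas in LHCB1.1 and FD1 the genotypes overlap.

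The minor antenna proteins, monomers that link the trimers to the photosystem II core, formed the group with the highest median (0.73), and all 6 genes rose. LHCB4.2 (AT3G08940), 1 of 3 genes for CP29, had ratios of 0.65, 0.64, 1.14 and 1.37 and was 1.93-fold higher (0.95 ± 0.06, adjusted p = 0.0025). LHCB6 (AT1G15820), which encodes CP24, averaged 17.66 ± 0.18 in AtERF4-HA seedlings and 16.80 ± 0.29 in the control (log2 intensity, SD, n = 4). Its ratios of 0.59, 0.42, 1.17 and 1.25 gave a 1.81-fold rise (adjusted p = 0.0028). For both genes the arrays with AtERF4-HA in Cy5 gave the larger ratios.

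The other CP29 genes differed in that respect. LHCB4.1 (AT5G01530) had ratios of 0.62, 0.51, 0.41 and 0.68 (0.55 ± 0.07, adjusted p = 0.0089), with no shift between the pairs of arrays. LHCB4.3 (AT2G40100) had 0.43, 0.67, 0.89 and 1.04 (0.76 ± 0.07, adjusted p = 0.0043). LHCB4.2 exceeded LHCB4.1 on all 4 arrays, by 0.39 ± 0.37 (SD), and LHCB4.3 exceeded it on 3, by 0.20 ± 0.30. LHCB5, the CP26 gene, had a fitted ratio of 0.71 (adjusted p = 0.0052), and LHCB7, a rarely studied relative, the lowest of the group at 0.30 (adjusted p = 0.021).

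In the photosystem I antenna, 5 of 6 genes rose and 1 did not pass (median 0.60). LHCA1 (AT3G54890) had log2 intensities of 17.28, 17.33, 17.49 and 17.64 in AtERF4-HA seedlings and 16.50, 16.53, 16.31 and 16.27 in the control. The levels did not overlap, and LHCA1 was 2.04-fold higher (1.03 ± 0.06, adjusted p = 0.0020). LHCA6 (AT1G19150), which with LHCA5 joins photosystem I to the NDH complex, had even ratios of 0.67, 0.58, 0.53 and 0.61 (0.60 ± 0.05, adjusted p = 0.0044). LHCA5 (AT1G45474) had 0.32, 0.11, 0.05 and 0.07 and did not pass (0.14 ± 0.06, adjusted p = 0.16). LHCA2, LHCA3 and LHCA4 had fitted ratios of 0.59, 0.67 and 0.59. LHCA3 had -0.02, 0.29, 1.04 and 1.37 on arrays 1 to 4, with the larger ratios where AtERF4-HA carried Cy5.

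All 12 photosystem I core genes rose, within a narrow band of fitted ratios from 0.45 to 0.77 with standard errors of 0.06 to 0.10. PSAO (AT1G08380), a small subunit near the LHCII docking side, had ratios of 0.33, 0.35, 1.00 and 1.42 and was 1.71-fold higher (0.77 ± 0.09, adjusted p = 0.0069). PSAF (AT1G31330), which takes part in plastocyanin docking, had 0.33, 0.52, 0.96 and 1.19 and was 1.68-fold higher (0.75 ± 0.07, adjusted p = 0.0047). In both, arrays 3 and 4 gave the higher ratios. PSAK, which sits beside the antenna, showed the widest gap between the pairs of arrays in this group, with 0.16, 0.11, 1.21 and 1.36 (fitted 0.71). PSAG, PSAN and PSAL, 3 further small subunits, had fitted ratios of 0.73, 0.61 and 0.57.

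Subunits D and E form the ferredoxin docking side on the stroma, and subunit H faces the docking site of LHCII; each is encoded by a pair of genes. PSAD1 (AT4G02770) had ratios of 0.29, 0.16, 0.75 and 1.05 (0.56 ± 0.07, adjusted p = 0.010), and PSAD2 (AT1G03130) had 0.70, 0.66, 0.61 and 1.00 (0.74 ± 0.08, adjusted p = 0.0067). PSAD2 was thus more even over the arrays, and the difference PSAD1 minus PSAD2 was -0.18 ± 0.32 (SD), below 0 on arrays 1 and 2 and above 0 on arrays 3 and 4. PSAE1 (AT4G28750) had 0.26, 0.47, 0.80 and 1.12 (0.66 ± 0.08, adjusted p = 0.0085), and PSAE2 (AT2G20260) had 0.46, 0.48, 0.51 and 0.84 (0.57 ± 0.07, adjusted p = 0.0096). Their mean difference was 0.09 ± 0.24 (SD), with 2 arrays on each side of 0. PSAH1 (AT3G16140) had -0.09, 0.22, 0.62 and 1.06 (0.45 ± 0.10, adjusted p = 0.035), and PSAH2 (AT1G52230) had 0.08, 0.35, 0.72 and 0.98 (0.53 ± 0.08, adjusted p = 0.013). PSAH1 was lost when array 4 was left out too (adjusted p = 0.053).

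The extrinsic proteins of the oxygen-evolving complex shield its manganese cluster, and all 5 of their genes rose. PSBQ2 (AT4G05180) stood out for its even values: log2 intensities of 15.71, 15.76, 15.70 and 15.90 in AtERF4-HA seedlings, against 14.78, 14.74, 14.73 and 14.72 in the control. It was 2.04-fold higher (1.03 ± 0.06, adjusted p = 0.0023). Its ratios of 0.93, 1.02, 0.97 and 1.19 did not shift between the pairs of arrays as those of most members did. PSBQ1 (AT4G21280), its paralog, had 0.35, 0.29, 0.58 and 0.84 (0.51 ± 0.07, adjusted p = 0.0099). PSBQ2 exceeded PSBQ1 on all 4 arrays, by 0.58, 0.73, 0.39 and 0.34.

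PSBP1 (AT1G06680) had ratios of 0.09, 0.35, 0.96 and 1.18 (0.64 ± 0.07, adjusted p = 0.0075). PSBO1 (AT5G66570) had 0.11, 0.12, 0.90 and 1.13 (0.57 ± 0.06, adjusted p = 0.0069) and PSBO2 (AT3G50820) had -0.05, 0.12, 0.86 and 1.22 (0.54 ± 0.08, adjusted p = 0.014). All of these were near 0 on array 1 and above 1 on array 4. PSBO1 and PSBO2 differed by 0.03 ± 0.10 (SD).

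Of the 8 other photosystem II genes, 6 rose and 2 did not pass (median 0.40). PSBX (AT2G06520), a small membrane subunit, had ratios of 0.33, 0.24, 0.65 and 0.86 (0.52 ± 0.06, adjusted p = 0.0083). PSBTN (AT3G21055), a small lumenal subunit, had 0.12, 0.19, 0.56 and 0.90 (0.44 ± 0.08, adjusted p = 0.019). PSBR, PSBW, PSB27 and PSBY had fitted ratios of 0.63, 0.52, 0.35 and 0.32, and PSBR and PSBW each had 1 array below 0. PSBY lost its call in 6 of 17 alternative settings. Among these were array 4 left out (adjusted p = 0.075) and the scanner software's processed signals (0.18, adjusted p = 0.094). PSBS (AT1G44575), the sensor of non-photochemical quenching, had ratios of 0.32, -0.60, 0.70 and 0.65. Array 2 thus stood against the other 3, and the fitted ratio of 0.27 ± 0.16 did not pass (adjusted p = 0.25). PSB28 (AT4G28660), an assembly factor, had a ratio of 0.08 ± 0.07 (adjusted p = 0.44).

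Of the 7 electron transport genes 5 rose, 1 fell and 1 did not pass (median 0.43). FD1 (AT1G10960), a leaf ferredoxin, had log2 intensities of 15.83, 15.60, 16.16 and 16.31 in AtERF4-HA seedlings and 16.45, 16.54, 16.12 and 16.30 in the control. It was lower on arrays 1 and 2, by ratios of -0.62 and -0.95, and level on arrays 3 and 4, at 0.05 and 0.01, so the genotypes overlapped. The fitted ratio was -0.38 ± 0.07 (adjusted p = 0.025). On arrays 3 and 4 alone it was 0.03 (adjusted p = 0.87), and with median centring in place of loess it was -0.15 (adjusted p = 0.52). FD2 (AT1G60950), the main leaf ferredoxin, had 0.21, 0.08, 0.00 and 0.01 and did not pass (0.08 ± 0.06, adjusted p = 0.34). FD2 minus FD1 was 0.45 ± 0.56 (SD), above 0 on arrays 1 and 2 only.

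The remaining 5 genes of this group rose. PETE1 (AT1G76100) and PETE2 (AT1G20340) encode plastocyanin, the copper protein that reduces photosystem I. PETE1 had the most even ratios of all members, 0.38, 0.41, 0.40 and 0.38 (0.39 ± 0.05, adjusted p = 0.010), whereas PETE2 had 0.35, 0.14, 0.93 and 1.01 (0.61 ± 0.06, adjusted p = 0.0058). PETE2 minus PETE1 was 0.22 ± 0.43 (SD), below 0 on arrays 1 and 2. The leaf ferredoxin-NADP+ reductase gene LFNR2 (AT1G20020) had 0.24, 0.41, 0.77 and 1.13 and was 1.56-fold higher (0.64 ± 0.08, adjusted p = 0.0096). LFNR1 (AT5G66190) had 0.23, 0.22, 0.55 and 0.71 (0.43 ± 0.06, adjusted p = 0.010) and lay below LFNR2 on all 4 arrays, by a mean difference of -0.21 ± 0.16 (SD). PETC, the Rieske protein of cytochrome b6f, had a fitted ratio of 0.45 ± 0.07 (adjusted p = 0.016).

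Of the ATP synthase genes, ATPD (AT4G09650), for the delta subunit, had ratios of 0.18, 0.04, 0.54 and 0.66 and rose (0.35 ± 0.06, adjusted p = 0.018). ATPC1 (AT4G04640), for the gamma subunit, had a fitted value of 0.31 ± 0.08 and missed the threshold (adjusted p = 0.0502). In cyclic electron flow around photosystem I, PGRL1A (AT4G22890) was called higher (0.51 ± 0.07, adjusted p = 0.011), but its ratios were 0.01 and -0.07 on arrays 1 and 2 and 0.92 and 1.197 on arrays 3 and 4. Its partner PGR5 (AT2G05620) had 0.16 ± 0.07 (adjusted p = 0.17). The less bright of the 2 PGRL1A probes was above 0 on all 4 arrays, with a mean of 0.53.

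Other nuclear thylakoid genes had a lower median than the members. Of 60 listed genes 58 had a probe and 57 were tested, of which 21 rose, 4 fell and 32 did not pass, with a median log2 ratio of 0.17. Over all tested genes 13.6% were called higher and 12% lower, the shares to set beside each class of this list, and several classes are small. The NDH complex, which feeds electrons from ferredoxin to plastoquinone, had 4 of 5 tested genes higher, led by NDHO at 0.76 ± 0.07 (adjusted p = 0.0045). Of the 4 PSBP- and PSBQ-like genes 3 rose, led by PQL1 at 0.62 ± 0.07 (adjusted p = 0.0067); RefSeq names these 3 PnsL1, PnsL2 and PnsL3, subunits of the same NDH complex. The CURT1 genes, which bend grana margins, had 3 of 4 higher, led by CURT1B at 0.74 ± 0.07 (adjusted p = 0.0048). The state transition phosphatase gene TAP38 rose (0.41 ± 0.07, adjusted p = 0.021), while the kinase genes STN7 and STN8 were at 0.17 and 0.01 and did not pass. Of 10 further carrier and ATP synthase genes 2 rose, led by ATPG at 0.30 ± 0.07 (adjusted p = 0.043).

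The 4 genes of that list that fell were ELIP1, ELIP2, FTSH8 and SIG5. ELIP2 (AT4G14690), an early light-induced relative of the antenna proteins, had ratios of -2.28, -2.80, -1.63 and -2.78. It was 5.17-fold lower (-2.37 ± 0.21, adjusted p = 0.0042), and ELIP1 was also lower (-1.17 ± 0.14, adjusted p = 0.0086). In the same class of 8 early light-induced and one-helix genes, SEP1 rose (0.24) and 5 did not pass. Of 12 tested assembly and repair genes 3 rose and 1 fell, against 13.6% and 12% of all genes. The 1 that fell was the thylakoid protease gene FTSH8 (-0.51 ± 0.05, adjusted p = 0.0054).

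Among 11 regulators, GLK1 (AT2G20570) rose, with ratios of 0.56, 0.44, 0.50 and 0.82 (0.58 ± 0.08, adjusted p = 0.0097), as did GLK2 (AT5G44190), at 0.25, 0.09, 0.32 and 0.69 (0.34 ± 0.08, adjusted p = 0.045). The plastid sigma factor genes SIG3 and SIG4 also rose, at 0.27 (adjusted p = 0.034) and 0.29 (adjusted p = 0.025). SIG5 (AT5G24120), a sigma factor known for its induction by blue light and stress, fell by 0.50 on the log2 scale (adjusted p = 0.0096), with ratios of -0.42, -0.51, -0.42 and -0.65. The GATA factor genes GNC and CGA1 were at 0.22 and -0.49, the plastid signalling gene GUN1 at 0.01, and SIG1, SIG2 and SIG6 at 0.06, 0.14 and -0.09; none of these 6 passed. The regulator calls did not hold in every subset, and few genes of any kind were called in those fits. Without array 1, 0 of the 57 tested genes of the list were called higher and 2 lower, against 241 and 417 of all 19495 genes. Without array 2, 0 were called higher and 0 lower, against 205 and 403 of all genes.

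Markers of tissues present in seedlings moved with the members in part. Of 14 tested root markers 4 rose and none fell, against 13.6% and 12% of all genes, with a median of 0.35. Their mean log2 intensity ranged from 10.02 to 10.25 in AtERF4-HA channels and from 9.73 to 9.88 in control channels. The largest root rise was TIP2;3 (1.18 ± 0.09), a tonoplast aquaporin. The lowest root ratio was that of CASP5 (-0.58), which did not pass, and 12 of the 14 were above 0, against 52.3% of all genes. Of 3 mesophyll markers, CA1, a carbonic anhydrase gene, rose (0.93 ± 0.06) with nearly equal ratios of 0.90, 0.90, 0.89 and 1.02, and RCA, for Rubisco activase, rose (0.32 ± 0.06). RBCS1A, a Rubisco small subunit gene, did not pass (0.21, adjusted p = 0.091). The mean of these 3 was 16.37 to 16.57 in AtERF4-HA channels and 15.89 to 16.05 in control channels. In guard cell, epidermis and phloem lists, 1 of 3, 1 of 2 and 1 of 2 rose (KAT1 at 0.65, ATML1 at 0.46, SUC2 at 0.77). The others did not pass: FAMA at -0.07, MYB60 at 0.02, PDF1 at 0.10 and APL at -0.10. The part of tissue makeup in the members' ratios was not tested.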

How the data were processed

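The authors' deposited scanner files hold green and red spot intensity, with a log10 ratio of red over green per the file headers, written by Agilent Feature Extraction 9.1.3.1, as the submitters' processing notes state. The deposited value table holds natural log ratios, judged by its slopes of 0.694, 0.697, -0.695 and -0.693 against log2 of red over green (the natural log of 2 is 0.693); the sources used here do not say how the authors made it, and its array medians (-0.22, -0.05, -0.14 and -0.08) are not centred.

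Median spot signals had their median local background corrected by normexp (offset 50) and were loess-normalized within arrays in limma 3.58.1 under R 4.3.3, with control spots at weight 0. Probes had to be well above background in one genotype's channel on all 4 arrays, and a gene took the ratio of its brightest such probe. Log2 ratios were fitted with lmFit and eBayes to a genotype and a dye term (2 residual degrees of freedom, prior 2.79), with Benjamini-Hochberg adjustment over 19495 genes. The ± after fitted ratios is the standard error; it is taken after the dye term and so covers less than the full spread between arrays. The number of arrays limits the precision.

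The members, lists, pairs and tests were chosen with earlier results of these data known. Named with full statistics were, per role, the 2 called members with the largest absolute ratio and the same sign on all arrays, every member called lower and the members of the pairs; every member that did not pass was named; of the other list, all regulators and the top called gene per class. Further genes, such as LHCA3, PSAK, PSBR, ELIP1, the kinases and the tissue markers, were named after their values were seen. Symbols are those of the lists, and all 57 loci matched the RefSeq table by locus tag. No coordinates are printed, since the sources used here name no genome build for the array.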

Additional observations from a re-analysis of the deposited data

Results flagged for a closer look

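PSAE2, for a photosystem I stromal subunit, had a log2 ratio of 0.84 on array 4, against 0.46 to 0.51 on the other 3. The gap to the nearest array was 0.882 of the whole range, above Dixon's 95% critical value for 4 values. It was the only gene so marked among the 57 checked; chance marks about 5% of groups. The 4 AtERF4-HA levels were 15.04, 14.96, 14.94 and 14.94 and the control levels 14.57, 14.48, 14.44 and 14.10, so the low control channel of array 4 stands apart.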

How the results depend on the processing

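The median log2 ratio of the 57 members stayed above 0 in every setting, between 0.27 and 0.84. With no background correction, offset 16, processed signals, background-subtracted signals, loess fitted without the listed genes, the authors' value table, no filter, saturated spots left out, mean of probes, and median centring, between 46 and 50 members were called higher. Median centring (which moved the median of all genes to 0.11) and a fit with no dye term called 0 members lower; with no dye term 31 were called higher, and the 16 calls lost had adjusted p-values of 0.05002 to 0.172. Leaving out 1 array gave 8 to 48 members higher and 0 to 1 lower, 0 to 22 of the other thylakoid genes higher and 0 to 7 lower, and 205 to 3285 of all genes higher and 403 to 3916 lower; an array left out leaves 1 residual degree of freedom. In fits chosen after seeing the data, arrays 1 and 2 alone called 25 members higher and 2 lower, with 14 and 6 of the other thylakoid genes and 2367 and 2833 of all genes, and arrays 3 and 4 alone called 4 higher and 0 lower, with 0 of the other thylakoid genes either way and 31 and 112 of all genes. Among called members, directions turned for PGRL1A (-0.031 on arrays 1 and 2) and FD1 (0.030 on arrays 3 and 4). Among members not called in the fit of all arrays, LHCB1.1 was called lower on arrays 1 and 2 (-0.46). Uncalled values below 0 were those of PSBS (-0.14), ATPC1 (-0.040) and PSB28 (-0.010) on arrays 1 and 2, LHCB2.1 on arrays 3 and 4 (-0.019), LHCB1.3 without array 2 (-0.14), LHCB1.1 (-0.11), FD2 (-0.086) and PSB28 (-0.063) with processed signals, and LHCB1.1 with the value table (-0.0016). Of the other thylakoid genes, 8, 8, 7 and 7 were lower with no background correction, processed signals, background-subtracted signals and the value table, and 37 higher with the value table. Those settings called 4193, 5050, 4332 and 7892 of all genes higher, and the first 3 called 4924, 3926 and 4375 lower; the value table, whose median over all genes was 0.16, called 3064 lower. The cause of these shifts was not tested. The fit of within-array ratios is already paired by replicate.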

Other observations

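LHCA5 and PGRL1A were the members with 2 probes. The second PGRL1A probe had log2 ratios of 0.29, 0.40, 0.62 and 0.79 on arrays 1 to 4, above 0 on each, where the brighter probe had 0.01, -0.07, 0.92 and 1.197; their means were 0.53 and 0.51. The second LHCA5 probe had 0.25, 0.08, 0.31 and 0.37, where the brighter had 0.32, 0.11, 0.05 and 0.07.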
